A study of Mus musculus with 6 samples.

Results

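The ephrins, Slits, netrins and repulsive guidance molecules (RGMs) are ligands that steer growing axons and migrating cells, and the Eph, Robo, UNC5, DCC and neogenin proteins are their receptors. Members were taken by gene name: protein-coding mouse genes of the Epha, Ephb, Efna, Efnb, Slit and Robo series, Ntn1, Ntn3, Ntn4, Ntn5, Ntng1, Ntng2, Unc5a to Unc5d, Dcc, Neo1, Rgma and Rgmb. This gave 43 annotated genes, of which 42 had a row in a count table of 47937 rows, and all 42 had at least 10 counts in total. Ntn3 was not analysed here. The members comprised 18 ligand genes and 24 receptor genes.

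Ephrins are held at the cell surface, by a lipid anchor in the A class and by a membrane-spanning stretch in the B class, and they signal through Eph receptor tyrosine kinases on the facing cell. Slits are secreted and act through Robo receptors, mostly as repellents. Netrins attract axons through DCC and repel them through UNC5 receptors, whereas the netrin-G proteins are membrane-anchored and bind other surface partners. RGMs are lipid-anchored ligands of neogenin. In the embryo these systems guide the axons of dorsal root ganglion (DRG) neurons to the spinal cord and the skin, and many of the genes are still transcribed in the adult ganglion.

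The RNA came from DRGs of the cervical, thoracic and lumbar levels of 3 control and 3 Tlx3cko mice of the C57BL/6 strain, all about 2 months old. Tlx3cko stands for Tlx3f/f;SNS-cre, in which both alleles of the homeobox transcription factor gene Tlx3 are floxed and Cre is driven by the promoter of the sodium channel Nav1.8 (SNS), which is active in most nociceptors from late embryonic life on, so that other cells of the ganglion keep the gene. The labels give the controls as wild type. In the behavioural work of the same study the controls were Tlx3F/F littermates, and whether the sequenced controls carried floxed alleles is not given in the sources used here. The libraries held 13761480, 15006871 and 18775628 counts for Control 1, 2 and 3, and 15535247, 11458299 and 15303922 counts for Tlx3cko 1, 2 and 3. The study describes the 3 samples of each genotype as independent.

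Normalized counts below are counts scaled to the mean effective library of 14974185, and levels are compared between genes only per length, as RPKM computed from the normalized counts and the annotated exon length, called the per-length level. Tlx3 had 1828, 2262 and 2433 counts in Control 1, 2 and 3 and 1717, 1052 and 1475 counts in Tlx3cko 1, 2 and 3. After normalization every Tlx3cko library lay below every control library, and 72.7% of the control level remained (log2 fold change -0.46, standard error (SE) 0.09, adjusted p = 0.0122 by edgeR's quasi-likelihood F test, Benjamini-Hochberg adjusted over all genes). Without Control 2, Tlx3cko 2 or Tlx3cko 3 this call was lost, with adjusted p up to 0.091 from the same edgeR test, and it was also lost with a term for Xist, at 0.223, and with Control 3 as the sole control, at 0.175 (range over 16 alternatives 3.25e-05 to 0.223). The ganglion identity of the tissue was seen in all 6 libraries: the sensory neuron transcripts Avil, Prph and Scn10a each had at least 10666 counts in every library, while the oligodendrocyte, inhibitory neuron and astrocyte transcripts chosen as signs of spinal cord had at most 5 counts in any library except for Aqp4. Aqp4 had between 40 and 146 counts.

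The sexes of the libraries were not balanced. Xist, transcribed from the inactive X chromosome, had 591 and 493 counts in Control 1 and 2 and at most 2 counts in the other 4 libraries, and the Y-linked Ddx3y had 0 counts in Control 1 and 2 and between 273 and 525 counts in the others. Every comparison of genotypes was therefore also fitted with a term for Xist and with Control 3 as the sole control. Both fits compare Control 3 with the 3 Tlx3cko libraries and give nearly the same fold changes, so they do not count as separate evidence. In the fit of Control 3 alone the spread comes from the Tlx3cko libraries, and the lone control is assumed to vary like them, while the term for Xist adds the spread between Control 1 and 2.

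The comparison asks which guidance genes differ in the adult ganglion once Tlx3 is removed from Nav1.8 neurons. Unc5c, a repulsive netrin receptor, Epha7, an ephrin-A receptor, and the ligand Slit2 were higher in Tlx3cko DRGs, and Rgmb, an RGM that is also a co-receptor for bone morphogenetic proteins, was lower. These 4 genes were 9.52% of the 42 members, against 4.25% of all 20006 genes tested (851 genes below an adjusted p of 0.05, quasi-likelihood F test of edgeR, Benjamini-Hochberg adjusted). The 1 lower member was 2.38% of the members, against 2.56% of all genes, and the 3 higher members were 7.14%, against 1.69%. Counts in so short a list turn on single genes. With a term for Xist or with Control 3 alone, 487 and 553 genes passed in all, and of the members Unc5c alone passed. Unc5c was likewise the only member past the threshold without Control 3 (629 genes in all) and without Tlx3cko 3 (512 genes in all). Without Tlx3cko 2 the count was 488 genes, with 0 members lower (Rgmb at an adjusted p of 0.0584 in edgeR, range over its alternatives 0.00113 to 0.117) and 2 higher, and without Control 2 it was 530 genes, with 1 member lower and 2 higher.

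Unc5c (chromosome 3, 141465216 to 141834924, plus strand) had 211, 154 and 205 counts in Control 1, 2 and 3 and 573, 444 and 517 counts in Tlx3cko 1, 2 and 3. Scaled to library size these were 227.7, 153.6 and 163.5 against 551.5, 582.6 and 508.8 normalized counts. The Tlx3cko libraries lay close together and all far above Control 1, the highest control. Control libraries averaged 181.6 ± 40.3 and Tlx3cko libraries 547.6 ± 37.1 normalized counts (SD, n = 3 each), a 3.02-fold rise with a 95% confidence interval of 2.41 to 3.80 (log2 fold change 1.60, SE 0.15, adjusted p = 4.46e-05 by edgeR's quasi-likelihood F test, Benjamini-Hochberg adjusted). Unc5c passed the threshold in each of the 16 alternatives to this fit, at log2 fold changes between 1.49 and 1.78. The highest adjusted p among them, 0.00154, came from the edgeR fit with a term for Xist, and the lowest was 6.15e-26. A gene on the other strand covers 0.6% of its exonic bases.

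**Figure D1:**
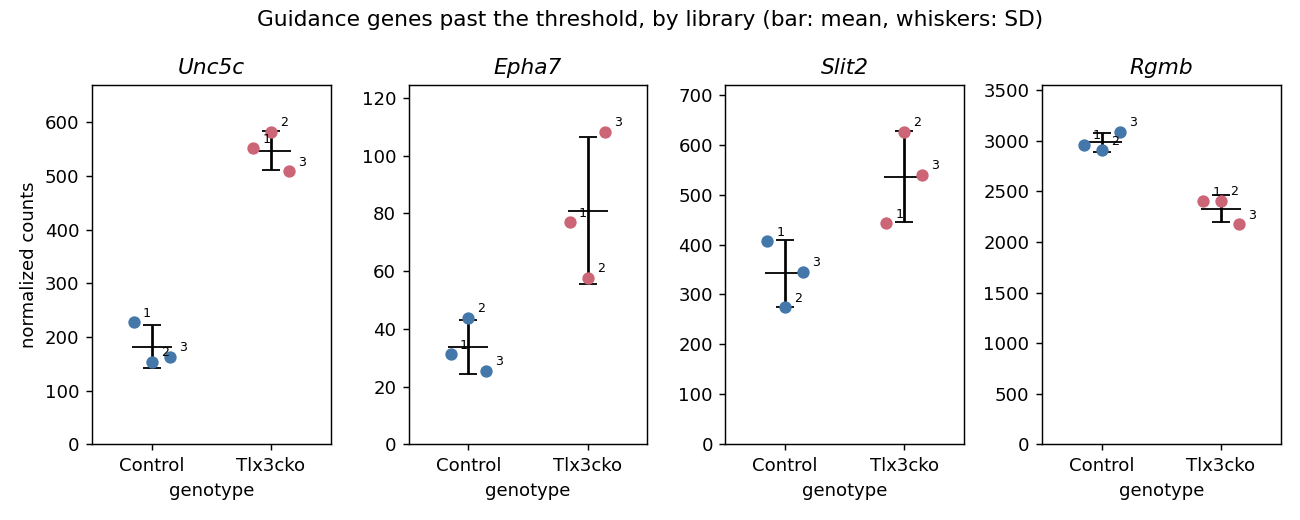
Normalized counts (vertical axes, starting at 0) of the 4 members past the threshold in each of the 6 libraries, with replicate numbers beside the points, a bar at the mean and whiskers of 1 SD (n = 3 a genotype). The Tlx3cko libraries of Unc5c lie between 508.8 and 582.6 against 153.6 to 227.7 in Control, and in each of the 4 genes the genotypes do not overlap.

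The other receptors of netrins and RGMs lay on both sides of 0 without a call. Unc5a, the UNC5 gene with the highest per-length level, had 293, 340 and 429 counts in Control 1, 2 and 3 and 329, 252 and 308 counts in Tlx3cko 1, 2 and 3. Once scaled, the genotypes overlapped and the log2 fold change was -0.07 (95% confidence interval -0.32 to 0.18). Per length, Unc5a stood at 5.33 ± 0.227 and Unc5c at 0.634 ± 0.141 in Control (SD, n = 3), and in Tlx3cko DRGs they stood at 5.08 ± 0.221 and 1.91 ± 0.129. By this measure Unc5c stayed below Unc5a in both genotypes and passed from below to near Unc5b. The per-length level of Unc5b was 2.20 ± 0.518 in Control and 2.42 ± 0.419 in Tlx3cko DRGs. This order depends on the annotated exon lengths, 19135 bases for Unc5c against 4168 for Unc5a and 6258 for Unc5b. Unc5d had between 16 and 36 counts a library. Neo1, which encodes neogenin, had a log2 fold change of 0.02 (95% confidence interval -0.23 to 0.28). Dcc, the attractive netrin receptor, was near the floor of detection, with 5, 4 and 10 counts in Control 1, 2 and 3 and 21, 12 and 27 counts in Tlx3cko 1, 2 and 3. All 3 Tlx3cko values of Dcc were above the controls, with a log2 fold change of 1.81 (SE 0.54) that did not pass the threshold (adjusted p = 0.0881, edgeR with Benjamini-Hochberg adjustment).

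Epha7 (chromosome 4, 28813131 to 28967499, plus strand) had 29, 44 and 32 counts in Control 1, 2 and 3 and 80, 44 and 110 counts in Tlx3cko 1, 2 and 3, or 31.3, 43.9 and 25.5 against 77.0, 57.7 and 108.3 normalized counts. Tlx3cko 2 was the lowest of its genotype and Control 2 the highest of its own, with a gap between them that is small beside the spread within Tlx3cko. Its log2 fold change was 1.28 (SE 0.31, 95% confidence interval 0.62 to 1.95, adjusted p = 0.0324 by edgeR's quasi-likelihood F test, Benjamini-Hochberg adjusted). The call was lost when Control 1, Control 3, Tlx3cko 1 or Tlx3cko 3 was left out, with adjusted p of 0.0791, 0.13, 0.0636 and 0.181 from the same edgeR test. With the Xist term, its log2 fold change was 1.67 and its adjusted p from edgeR 0.107 (range over the 16 alternatives 9e-04 to 0.181), and a term for the replicate numbers, the replicate block, also ended the call.

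Of the other 8 EphA receptor genes 0 passed the threshold with edgeR, 2 had an unadjusted p under 0.05, and 1 passed with DESeq2 and 1 with limma-voom. The share of all genes at an unadjusted p under 0.05 is not given here. This and later unadjusted counts are therefore not read as results about the genes. Epha6, the EphA gene with the highest per-length level in Control, had 206, 116 and 194 counts in Control 1, 2 and 3 and 255, 244 and 284 counts in Tlx3cko 1, 2 and 3. All Tlx3cko values of Epha6 were above the controls after scaling, although Control 1 came close to Tlx3cko 1 (222.3 against 245.4 normalized counts). Its log2 fold change was 0.78 (SE 0.21, adjusted p = 0.0565, edgeR with Benjamini-Hochberg adjustment). Without Control 1 it passed, at 1.05 with an adjusted p of 0.00754 from edgeR, and it also passed with DESeq2, with limma-voom and without the filter on low counts (range over the 16 alternatives 0.000233 to 0.271). Epha10 had 102, 98 and 135 counts in Control 1, 2 and 3 and 86, 56 and 98 counts in Tlx3cko 1, 2 and 3, the sole EphA gene whose Tlx3cko values all lay below the controls (log2 fold change -0.32, SE 0.20). Epha8 and Epha1 had no overlap between the genotypes in the other direction, at low counts of 3 to 51 and 27 to 40 a library and with log2 fold changes of 1.43 (SE 0.53) and 0.37 (SE 0.29). Epha2, Epha3, Epha4 and Epha5 overlapped between the genotypes. Epha8 passed in the fit without a filter on low counts, at an adjusted p of 0.0243 in edgeR (range over its 16 alternatives 0.0243 to 0.694).

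The EphA genes summed to a per-length level of 7.21, 5.22 and 6.04 in Control 1, 2 and 3 and 7.77, 8.85 and 9.11 in Tlx3cko 1, 2 and 3. The Tlx3cko sums were all above the control sums, with Control 1 the nearest to them. Epha6 made up 33.7% of the control sum, so the family had no single dominant gene.

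EphB receptors bind the B-class ephrins, and Ephb6 among them lacks kinase activity. Ephb6 held 78.0% of the EphB sum in Control, with 833, 832 and 1123 counts in Control 1, 2 and 3 and 811, 613 and 875 counts in Tlx3cko 1, 2 and 3. Its values overlapped between the genotypes (log2 fold change -0.10, 95% confidence interval -0.30 to 0.09). Ephb1 had 50, 32 and 96 counts in Control 1, 2 and 3 and 95, 64 and 93 counts in Tlx3cko 1, 2 and 3, or 31.9 to 76.6 against 84.0 to 91.5 normalized counts. Control libraries of Ephb1 were widely spread and Tlx3cko libraries were not, and the log2 fold change of 0.71 (SE 0.29) did not pass the threshold (adjusted p = 0.26, edgeR with Benjamini-Hochberg adjustment). In the fit with a term for Xist, Ephb1 stood at 0.22, and without Control 2 and without Control 3 at 0.44 and 1.06. Ephb4 had 127, 103 and 155 counts in Control 1, 2 and 3 and 169, 115 and 140 counts in Tlx3cko 1, 2 and 3. All Tlx3cko values of Ephb4 were higher than the controls after scaling, but Tlx3cko 3 and Control 1 nearly met (137.8 against 137.1 normalized counts). The confidence interval was -0.07 to 0.70 on the log2 scale. Ephb2 and Ephb3 had log2 fold changes of 0.17 and -0.09.

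Robo2 was the main Robo gene of the ganglion, with 82.5% of the Robo sum per length in Control. It had 2214, 2259 and 3373 counts in Control 1, 2 and 3 and 2482, 1813 and 2339 counts in Tlx3cko 1, 2 and 3. The genotypes overlapped, the log2 fold change was -0.05 with a confidence interval of -0.23 to 0.12, and without Control 3 it was 0.02. Robo1 averaged 281.8 ± 42.1 normalized counts over the control and 316.7 ± 54.0 over the Tlx3cko libraries (SD, n = 3 each). Robo4, which is known from endothelium, had between 57 and 93 counts a library, and Robo3, a receptor of commissural axons, had 16 counts in Control 3 and at most 4 in any other library.

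Slit2 (chromosome 5, 47983138 to 48307733, plus strand) had 377, 275 and 433 counts in Control 1, 2 and 3 and 460, 477 and 549 counts in Tlx3cko 1, 2 and 3. Scaled to library size these were 406.9, 274.3 and 345.4 against 442.7, 625.9 and 540.3 normalized counts. Control 1 and Tlx3cko 1 nearly met, and Tlx3cko 2 stood highest. The rise was 1.57-fold, with a 95% confidence interval of 1.23 to 1.99 (log2 fold change 0.65, SE 0.16, adjusted p = 0.038 by edgeR's quasi-likelihood F test, Benjamini-Hochberg adjusted). Left out in turn, Control 2, Control 3, Tlx3cko 2 and Tlx3cko 3 each ended the call, with adjusted p of 0.151, 0.103, 0.177 and 0.117 from the same edgeR test. Slit2 kept nearly the same log2 fold change with a term for Xist, 0.63, with an adjusted p of 0.299 from edgeR (range over the 16 alternatives 4.81e-05 to 0.299), and the replicate block also ended the call.

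Slit1 held 92.7% of the Slit sum per length in Control. It had 1590, 1864 and 2506 counts in Control 1, 2 and 3 and 1658, 1205 and 1670 counts in Tlx3cko 1, 2 and 3. The scaled Tlx3cko values, 1581 to 1644, were all below the controls, 1716 to 1999, by a log2 fold change of -0.21 (SE 0.08, adjusted p = 0.228, edgeR with Benjamini-Hochberg adjustment). Slit3 had 66, 68 and 82 counts in Control 1, 2 and 3 and 90, 96 and 75 counts in Tlx3cko 1, 2 and 3. All scaled Tlx3cko values of Slit3 were above the controls, with Tlx3cko 3 close to them (73.8 against 71.2 in Control 1), and the log2 fold change was 0.48 (95% confidence interval -0.04 to 0.99), or 0.25 without Tlx3cko 2. Because Slit1 is so much more abundant, the Slit sum per length was 22.6 ± 1.49 in Control and 20.6 ± 0.408 in Tlx3cko DRGs (SD, n = 3 each), although Slit2 rose.

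Rgmb (chromosome 17, 15803188 to 15831039, minus strand) was the most abundant member per length in Control, at 26.0 ± 0.812 (SD, n = 3). It had 2743, 2916 and 3873 counts in Control 1, 2 and 3 and 2497, 1835 and 2209 counts in Tlx3cko 1, 2 and 3, or 2961, 2908 and 3089 against 2403, 2408 and 2174 normalized counts. Replicates lay close together in both genotypes, with a clear gap between them and Tlx3cko 3 lowest. The level in Tlx3cko DRGs was 78.0% of control (log2 fold change -0.36, SE 0.08, 95% confidence interval -0.52 to -0.20, adjusted p = 0.0155 by edgeR's quasi-likelihood F test, Benjamini-Hochberg adjusted). The call was lost without Control 3, Tlx3cko 2 or Tlx3cko 3, with adjusted p of 0.0588, 0.0584 and 0.117 from the same edgeR test. Rgmb had a log2 fold change of -0.41 once the term for Xist was added, with an adjusted p of 0.072 from edgeR (range over the 16 alternatives 0.00113 to 0.117). Rgma, the other RGM gene, averaged 239.9 ± 54.3 normalized counts over the control and 204.4 ± 17.0 over the Tlx3cko libraries (SD, n = 3 each), with overlap.

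Of the 8 ephrin genes 0 passed the threshold with edgeR, DESeq2 or limma-voom, and 3 had an unadjusted p under 0.05 in edgeR. That last count stands without the share of all genes and is not read as a result about the ephrins. Efna1, the A-class ephrin with the highest per-length level in Control, had 316, 379 and 384 counts in Control 1, 2 and 3 and 288, 212 and 216 counts in Tlx3cko 1, 2 and 3. Its scaled Tlx3cko values were all below the controls, with a log2 fold change of -0.42 (SE 0.14, adjusted p = 0.161, edgeR with Benjamini-Hochberg adjustment), which was -0.26 with a term for Xist. Efna2 had 63, 62 and 70 counts in Control 1, 2 and 3 and 44, 32 and 38 counts in Tlx3cko 1, 2 and 3, again without overlap (log2 fold change -0.61, SE 0.25, adjusted p = 0.269, edgeR with Benjamini-Hochberg adjustment). Efna5, an ephrin known from the mapping of retinal axons, averaged 313.8 ± 7.84 normalized counts over the control and 307.6 ± 30.3 over the Tlx3cko libraries (SD, n = 3 each). Efna3 had a log2 fold change of 0.06, and Efna4 had at most 7 counts in any library. Together the A-class ephrins summed to a per-length level of 24.1, 24.1 and 21.1 in Control 1, 2 and 3 and 19.7, 20.2 and 18.4 in Tlx3cko 1, 2 and 3, so that every Tlx3cko sum was below every control sum while the EphA sums lay the other way.

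Efnb1, the B-class ephrin with the highest per-length level in Control, lies on the X chromosome. It had 407, 507 and 600 counts in Control 1, 2 and 3 and 380, 282 and 358 counts in Tlx3cko 1, 2 and 3. The scaled values were 439.3 to 505.7 in Control and 352.3 to 370.0 in Tlx3cko DRGs, and Control 3, which lacks Xist, lay between the other controls. The log2 fold change was -0.39 (SE 0.11, adjusted p = 0.0727, edgeR with Benjamini-Hochberg adjustment). The Xist term left it at -0.40, with an adjusted p of 0.325 from edgeR (range over the 16 alternatives 0.0554 to 0.325). Efnb2 averaged 752.3 ± 59.5 normalized counts over the control and 694.1 ± 5.40 over the Tlx3cko libraries (SD, n = 3 each), with overlap, and Efnb3 had between 14 and 32 counts a library.

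Per length, the netrin genes summed to a lower level than the netrin-G genes in every library. Ntn4 had 92, 130 and 115 counts in Control 1, 2 and 3 and 146, 92 and 110 counts in Tlx3cko 1, 2 and 3, with overlap and a log2 fold change of 0.21 (95% confidence interval -0.23 to 0.64). Leaving out Control 2, Control 3 or Tlx3cko 1 moved it to 0.37, 0.10 and 0.10. Ntn1, the ligand that binds both DCC and UNC5 proteins, had between 101 and 206 counts a library and a log2 fold change of -0.43 (95% confidence interval -0.86 to 0.01), with overlap. Ntn5 had at most 3 counts in each library of both genotypes, which is at the floor of detection used here, and 23.4% of its exonic bases lie under a gene on the other strand, so no fold is given. Ntng2 had 829, 939 and 1117 counts in Control 1, 2 and 3 and 960, 841 and 1064 counts in Tlx3cko 1, 2 and 3. Its genotypes overlapped (log2 fold change 0.17, 95% confidence interval -0.03 to 0.38), and 14% of its exonic bases are shared with another annotated gene on the same strand. The netrin sum per length was 3.59 ± 0.534 in Control and 3.54 ± 0.316 in Tlx3cko DRGs, and the netrin-G sum was 20.2 ± 0.049 and 22.6 ± 2.03 (SD, n = 3 each).

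**Figure D2:**
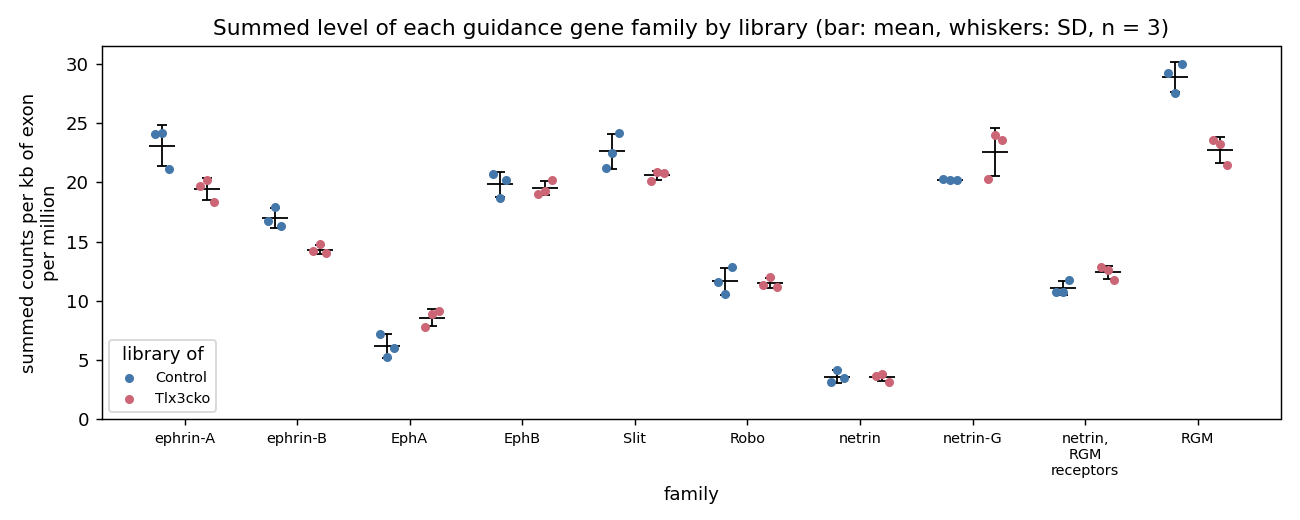
Summed per-length level (vertical axis, RPKM from normalized counts, starting at 0) of each family in the 6 libraries, with bars at the mean and whiskers of 1 SD (n = 3 a genotype). The RGM sum is 28.9 in Control and 22.7 in Tlx3cko DRGs and the EphA sum 6.16 and 8.58, each without overlap, while the Robo sums of 11.7 and 11.5 overlap. The ephrin-A, ephrin-B and Slit sums also lie lower in Tlx3cko DRGs without overlap. Those of the netrin and RGM receptors lie higher, by a narrow gap (11.73 in Control 3 against 11.78 in Tlx3cko 3).

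Over all members, the groups did not overlap in 17 genes (40.5%), against 19.7% of all genes tested. In 6 of them the Tlx3cko values were lower (14.3%, against 10.8% of all genes) and in 11 they were higher (26.2%, against 8.87% of all genes), Ntn5 at the floor of detection among them. Among the 24 receptor genes, 8 lay higher without overlap and 1 lower, and among the 18 ligand genes 3 lay higher and 5 lower. The median log2 fold change was 0.17 for the receptors and 0.02 for the ligands, 0.12 for the 42 members together and -0.00365 for all genes tested. In 31 of the 42 members the log2 fold change was within 0.5 of 0. In 12 members the sign turned in at least 1 of the alternatives, of which Epha3, at 0.24, had the log2 fold change furthest from 0.

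**Figure D3:**
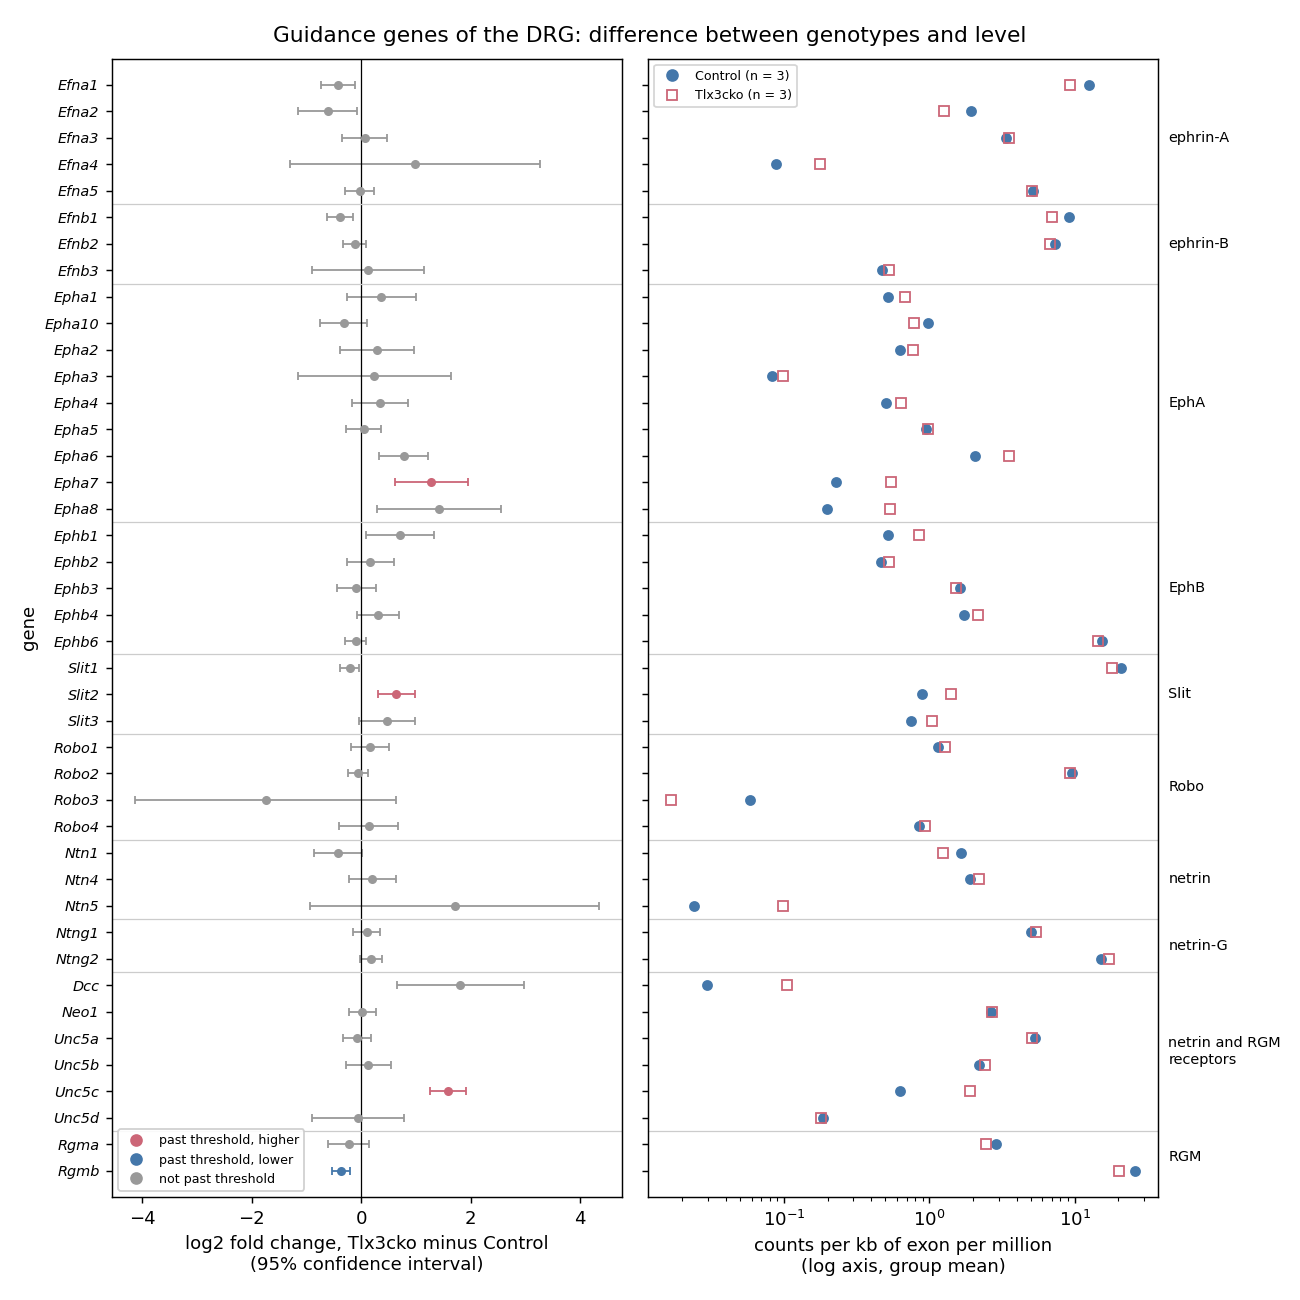
Left, log2 fold change of each of the 42 members (horizontal axis, Tlx3cko minus Control, with 95% confidence intervals), coloured by whether it passed the threshold. Right, mean per-length level in each genotype on a log axis. Unc5c (1.60) has a narrow interval well away from 0, while Dcc (1.81) and Ntn5, at few counts, have wide ones.

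The members spanned a wide range of levels. In Control DRGs 5 genes reached a per-length level of at least 10, namely Rgmb (26.0 ± 0.812), Slit1 (21.0 ± 1.60), Ephb6 (15.5 ± 0.692), Ntng2 (15.2 ± 0.423) and Efna1 (12.5 ± 1.31), each with its SD over 3 libraries. Ephb6 and Ntng2 differed by less than the spread of their replicates. Another 17 genes lay between 1 and 10, and 20 lay under 1, Unc5c, Epha7 and Slit2 among them. Per length, the 3 members that rose were thus low-level genes, and Rgmb, which fell, was the most abundant. This measure divides by all annotated exons, 25433 bases for Slit2 and 19135 for Unc5c. It understates genes with long untranslated ends.

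Genes that act with these receptors were taken from 4 lists of partners, 76 genes in all. Of the 76, 4 were lower and 5 higher in Tlx3cko DRGs (quasi-likelihood F test of edgeR, Benjamini-Hochberg adjusted p below 0.05), where 2.56% of all genes were lower and 1.69% higher, and the median log2 fold change was 0.03. The 4 lower genes became 2 without Control 3, Tlx3cko 2 or Tlx3cko 3, and the 5 higher genes became 2 without Control 2 or Control 3 and 1 without Tlx3cko 2 or Tlx3cko 3. Of the 21 partners of netrin receptors and netrin-G ligands, 1 fell and 2 rose. Dapk1, a death-associated kinase that binds UNC5 receptors, had 1945, 2458 and 3120 counts in Control 1, 2 and 3 and 1321, 916 and 1246 counts in Tlx3cko 1, 2 and 3. All Tlx3cko libraries of Dapk1 were far below the controls, at 1233 ± 35.2 against 2347 ± 215 normalized counts (SD, n = 3 each). Its log2 fold change was -0.93 (SE 0.09, adjusted p = 3.5e-05 from edgeR with Benjamini-Hochberg adjustment), and Dapk1 passed in each of the 16 alternatives. In the same ganglia the receptor gene Unc5c was higher and the gene of this UNC5 partner lower.

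Dscaml1, a relative of the netrin-binding adhesion protein DSCAM, had 60, 83 and 89 counts in Control 1, 2 and 3 and 137, 107 and 128 counts in Tlx3cko 1, 2 and 3. Lrrc4c, which encodes the netrin-G1 ligand NGL-1, had 217, 208 and 342 counts in Control 1, 2 and 3 and 338, 298 and 379 counts in Tlx3cko 1, 2 and 3. Both had no overlap after scaling, with log2 fold changes of 0.86 (SE 0.19) and 0.60 (SE 0.14). The call of Dscaml1 was lost without Control 1, Control 3, Tlx3cko 1, Tlx3cko 2 or Tlx3cko 3 (adjusted p up to 0.0894 in these edgeR fits, and 0.185 with a term for Xist, the highest of its alternatives, which started at 0.00689), and with Control 3 as the sole control. That of Lrrc4c was lost without Control 1, Control 2, Tlx3cko 2 or Tlx3cko 3 (adjusted p up to 0.127 in these edgeR fits, and 0.449 with a term for Xist, the highest of its alternatives, which started at 0.00206), and with Control 3 as the sole control.

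Of the 19 partners of Slit and Robo, 2 fell and 2 rose. Pak1, a kinase downstream of Rac, had 1444, 1471 and 1939 counts in Control 1, 2 and 3 and 2464, 1627 and 2190 counts in Tlx3cko 1, 2 and 3. It lay higher in every Tlx3cko library after scaling, by a log2 fold change of 0.54 (SE 0.08, adjusted p = 0.00119 from edgeR with Benjamini-Hochberg adjustment), and passed in each of the 16 alternatives. Srgap1, a GTPase-activating protein that binds Robo, had 1085, 1033 and 1329 counts in Control 1, 2 and 3 and 1422, 1155 and 1387 counts in Tlx3cko 1, 2 and 3 (log2 fold change 0.38, SE 0.09). The lower genes were Hs6st1 and Ndst1, enzymes that modify the heparan sulfate on which Slit and Robo bind. Hs6st1 had 2245, 2354 and 3699 counts in Control 1, 2 and 3 and 2067, 1397 and 1791 counts in Tlx3cko 1, 2 and 3. Ndst1 had 1278, 1216 and 1874 counts in Control 1, 2 and 3 and 1187, 723 and 1024 counts in Tlx3cko 1, 2 and 3. Hs6st1 changed by -0.47 and Ndst1 by -0.40 on the log2 scale, each with an SE of 0.10. Left out, Control 3, Tlx3cko 2 and Tlx3cko 3 each ended the calls of Srgap1, Hs6st1 and Ndst1, with adjusted p up to 0.129, 0.0822 and 0.226 in the edgeR fits without 1 library, and Srgap1 was also lost without Control 2 and Ndst1 without Control 1. Srgap1 and Ndst1 were also lost with a term for Xist (adjusted p of 0.165 and 0.066 in edgeR) and with Control 3 as the sole control (0.119 and 0.0535), while Hs6st1 passed in both fits. The replicate block ended the call of Srgap1 and the size factors of DESeq2 that of Ndst1. Over all alternatives the adjusted p ranged from 0.00323 to 0.165 for Srgap1, from 1.06e-05 to 0.0822 for Hs6st1 and from 0.00184 to 0.226 for Ndst1.

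Of the 24 partners of Eph receptors and ephrins, 1 fell and 1 rose. Sdcbp, which encodes the ephrin-B binding scaffold syntenin, had 4786, 5909 and 7027 counts in Control 1, 2 and 3 and 4373, 2933 and 4063 counts in Tlx3cko 1, 2 and 3. It passed in each of the 16 alternatives, and its main log2 fold change was -0.47 (SE 0.08, adjusted p = 0.00281 from edgeR with Benjamini-Hochberg adjustment). Abl2, a kinase of the Abl family, had 745, 587 and 807 counts in Control 1, 2 and 3 and 974, 768 and 1024 counts in Tlx3cko 1, 2 and 3 (log2 fold change 0.54, SE 0.12). Its call was lost without Control 2, Control 3, Tlx3cko 2 or Tlx3cko 3, with adjusted p up to 0.0768 in edgeR, and with a term for Xist, at 0.107 (range over the 16 alternatives 3.71e-05 to 0.107). Of the 12 ligands, receptors and partners of RGM and neogenin 0 passed with edgeR, DESeq2 or limma-voom, and 1 had an unadjusted p under 0.05 in edgeR.

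Cell type markers moved with the genotype, and fewer cells of a type cannot be told apart from less RNA per cell in whole ganglia. Of 7 markers of MrgprD non-peptidergic neurons 6 fell, with a summed level of 14830, 15710 and 17760 normalized counts in Control 1, 2 and 3 and 9198, 9136 and 8135 in Tlx3cko 1, 2 and 3. Plxnc1 was highest by counts, and P2rx3 had the highest per-length level in Control. Of 9 markers of MrgprA3 and Nppb/Sst pruriceptors 8 fell, with sums of 2297, 2596 and 2832 in Control 1, 2 and 3 and 510.1, 450.1 and 454.7 in Tlx3cko 1, 2 and 3, and Nppb and Mrgprb4 had at most 3 counts in each Tlx3cko library. All 5 markers of TH-positive C fibre neurons fell, with sums of 1888, 3429 and 3018 in Control 1, 2 and 3 and 887.4, 786.0 and 703.7 in Tlx3cko 1, 2 and 3. Control 1 had the lowest sum of the controls in each of these 3 lists. The calls of Agtr1a and Ggta1 in the first list and Zfp521 in the last were each lost without Control 2, Tlx3cko 2 or Tlx3cko 3, and Agtr1a also without Control 1, Ggta1 without Control 3 and Zfp521 without Control 3 or Tlx3cko 1 (adjusted p up to 0.141, 0.132 and 0.154 in these edgeR fits, and 3.71e-05 to 0.48 over all alternatives of the 3 genes). With a term for Xist these 3 calls were lost as well (adjusted p of 0.467, 0.129 and 0.135 in edgeR), as they were with Control 3 as the sole control (0.48, 0.0863 and 0.0868), and the log2 fold change of Agtr1a went from -0.87 to -0.56 with the Xist term. Mrgprb5, in the list with 8 of 9 lower, was lost with Control 3 as the sole control (adjusted p of 0.137 in edgeR, range over alternatives 3.13e-10 to 0.137). Of 7 markers of large myelinated neurons Nefh, Nefm and Pvalb rose, and the list, led by Nefm, averaged 211000 ± 275 over the control and 277500 ± 23760 normalized counts over the Tlx3cko libraries (SD, n = 3 each). The calls of Nefh and Nefm were lost with a term for Xist (adjusted p of 0.0614 and 0.0588 in edgeR, the highest of their alternatives, which started at 1.66e-05 and 5.53e-06), that of Nefm also with Control 3 as the sole control, and that of Pvalb without Control 2 or Control 3 (adjusted p up to 0.0592 in edgeR, range from 3.41e-07). Of 8 general markers of DRG neurons Scn10a, which encodes Nav1.8 and whose promoter drives Cre, passed the threshold and was higher, and the list, led by Prph, summed to 96030, 99880 and 98590 in Control 1, 2 and 3 and 103900, 105500 and 102500 in Tlx3cko 1, 2 and 3. The genes of this list moved both ways. Prph (32370 normalized counts on average in Control and 29710 in Tlx3cko), Avil (15560 and 14320) and Pou4f1 (4578 and 4032) lay lower without overlap. Snap25 (11880 and 14100) lay higher without overlap. None of them had a call in edgeR. Over the whole list DESeq2 called 2 genes, Scn10a among them, and limma-voom called Scn10a alone. Scn10a averaged 24210 ± 1097 normalized counts over the control and 32660 ± 2160 over the Tlx3cko libraries (SD, n = 3 each), without overlap. Its log2 fold change was 0.43 (SE 0.07, adjusted p = 0.00281 from edgeR with Benjamini-Hochberg adjustment), and it passed in each of the 16 alternatives. The part of these shifts in the values of the guidance genes was not tested.

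Markers of other cells that can express Eph, ephrin, Slit and Robo genes gave the following values. Of 6 fibroblast markers Col1a1, Col3a1, Dcn and Pdgfra fell, and the list summed to 4784, 5641 and 5283 normalized counts in Control 1, 2 and 3 and 3917, 3767 and 4070 in Tlx3cko 1, 2 and 3, with Dcn the most abundant per length and by counts in Control. With a term for Xist none of these 4 passed in edgeR, at adjusted p of 0.194, 0.0513, 0.512 and 0.111, the highest of these being the highest over all their alternatives, which started at 1.28e-08. With Control 3 as the sole control Col3a1 passed and the other 3 did not, and the replicate block also ended the call of Pdgfra. Leaving out 1 library ended calls too, with adjusted p up to 0.155, 0.0894, 0.201 and 0.154 in these edgeR fits. Col1a1 was lost without Control 2, Control 3, Tlx3cko 1 or Tlx3cko 2, and Col3a1 without Control 2, Control 3, Tlx3cko 1 or Tlx3cko 3. Dcn was lost without Control 1, Control 2, Tlx3cko 2 or Tlx3cko 3, and Pdgfra without any of the libraries but Control 2. Of 9 endothelial markers Pecam1 rose, and the list summed to 1318, 1189 and 1095 in Control 1, 2 and 3 and 1432, 1581 and 1519 in Tlx3cko 1, 2 and 3, with Flt1 highest by counts and Cldn5 highest per length in Control. Without Control 3, Tlx3cko 2 or Tlx3cko 3 Pecam1 did not pass, nor did it with a term for Xist or with Control 3 as the sole control (adjusted p of 0.0583 and 0.0588 in edgeR, range over alternatives 0.00187 to 0.0991). With edgeR 0 of the 5 markers of pericytes and smooth muscle, the 6 of satellite glia, the 6 of Schwann cells, the 5 of immune cells and the 5 of red blood cells passed the threshold. At an unadjusted p under 0.05 the counts in these lists were 3, 1, 2, 0 and 1, DESeq2 called 0, 1, 2, 0 and 0, and limma-voom called 0, 0, 1, 0 and 0. Skeletal muscle markers varied most between libraries, with sums of 1839, 525.6 and 103.7 in Control 1, 2 and 3 and 2845, 2463 and 1533 in Tlx3cko 1, 2 and 3. Acta1 led that list, and of its 6 genes Myh4 rose, a call lost without Control 2 (adjusted p of 0.0611 in edgeR) and not made by DESeq2 (adjusted p of 0.0639, range over alternatives 8.15e-87 to 0.0639). The part of these cells in the values of the guidance genes was not tested either.

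The promoters of the members were looked at in RefSeq windows of 300 bases, 250 before and 50 after a transcription start (GRCm38.p6), which were at hand for 36 of the 42 members, 43 windows in all. Tlx3 is a homeodomain protein, and many homeodomains bind TAATTA or TAATTG, so both words were searched on both strands. They differ in their last letter and can overlap only in part. One or the other was found in 7 windows of 6 members (16.3% of the 43 windows), against 12.4% of the 32851 windows of all genes. The 2 windows of Epha7 hold the same TAATTG, which is counted in each of them. A match is a description of letters and says nothing of binding. Member windows were rich in the dinucleotide CG, with at least 20 in 25 of the 43 windows (58.1%), against 26.5% of all windows. Unc5c and Epha7 are shown because they had the largest rises among the members past the threshold. The window of Unc5c (chr3:141465314-141465613, plus strand) held neither word. Those of Epha7 overlap, and the first (chr4:28812881-28813180, plus strand) held TAATTG, in capitals, at 28813126 to 28813131, whose last base is the first base of the annotated gene.
Unc5c: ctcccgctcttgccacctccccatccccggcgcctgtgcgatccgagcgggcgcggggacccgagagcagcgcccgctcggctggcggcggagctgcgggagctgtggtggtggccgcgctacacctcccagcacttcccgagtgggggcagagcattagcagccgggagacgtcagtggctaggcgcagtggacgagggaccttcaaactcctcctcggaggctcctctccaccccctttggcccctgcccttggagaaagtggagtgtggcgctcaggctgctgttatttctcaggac
Epha7: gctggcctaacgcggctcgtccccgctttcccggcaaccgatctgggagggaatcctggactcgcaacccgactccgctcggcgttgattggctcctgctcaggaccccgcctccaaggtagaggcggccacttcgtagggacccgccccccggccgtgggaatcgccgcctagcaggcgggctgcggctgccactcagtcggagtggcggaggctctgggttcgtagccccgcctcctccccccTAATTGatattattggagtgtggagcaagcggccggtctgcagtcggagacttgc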

How the data were processed

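The authors deposited read counts per gene for each library, without normalization, and these counts are the unit of every value here. The submitters' processing notes name STAR 2.5.2a and mm10. The counting program and the use of strand are not given in the sources used here. Gene names, positions and exon lengths came from GENCODE M21 (GRCm38). The per-length level divides by the union of annotated exons, which understates genes with long untranslated ends. The members and lists were chosen with earlier results of these data known. Genes with at least 10 counts in total (20006) were normalized by TMM with full library totals and tested in R 4.3.3 with edgeR 4.0.16 (glmQLFit, glmQLFTest), Benjamini-Hochberg adjustment over all of them, and a threshold of 0.05. The code was tested on simulated data. Standard errors were taken as the size of the log2 fold change over the root of F. For a single gene, permuting 3 against 3 libraries (exact, two-sided) cannot give a p below 0.1. Replicate libraries differed by more than sampling noise (chi-square per degree of freedom 4.32 to 10.1). Intervals and floors (3 counts) cover what the model or counting sees. Counts in every library are given for members past the threshold, the most abundant member of each family per length, up to 10 further members without overlap (mean of 50 normalized counts or more), and partner genes past the threshold. Dcc was added after its values were seen. Alternatives used DESeq2 1.42.0, limma 3.58.1, other scalings and filters, a term for Xist, Control 3 alone, the replicate block, other thresholds and each library left out. The marker list of peptidergic nociceptors is not reported here.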

Additional observations from a re-analysis of the deposited data

How the results depend on the processing

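Direction held in 287 of the 288 values of the 18 named members over 16 alternatives. The exception was Robo2 without Control 3, at 0.0218 on the log2 scale (-0.108 to 0.0218 over the libraries left out), for which the cause was not tested. Many named members were chosen because they passed the threshold or did not overlap in these data, which favours a stable direction. Of all 42 members, 12 turned sign in at least 1 alternative. Without the filter on low counts 1529 genes passed, with 5 members higher, for which the cause was not tested. With a term for Xist 487 genes passed, 0 members lower, 1 member higher, 3 partner genes lower and 1 higher. Control 3 alone gave 553 genes, 0 members lower, 1 member higher, 3 partner genes lower and 2 higher, with fewer samples and the same contrast as the Xist term. An adjusted p under 0.01 left 418 genes, 0 members lower, 1 higher, 2 partner genes lower and 1 higher. Under 0.1 more genes passed in all than the 851 under 0.05, with 2 members lower, 5 higher, 5 partner genes lower and 6 higher. The larger member counts under 0.1 are therefore not read as a result about the members. Leaving out each library in turn gave 488 to 938 genes, 0 to 1 members lower, 1 to 3 members higher, 2 to 4 partner genes lower and 1 to 5 partner genes higher.

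The replicate numbers gave no sign of pairing the samples. Deviations of equally numbered libraries correlated at -0.129, -0.0158 and -0.106, and not every library correlated best with its own number. This check is weak with 3 libraries a genotype and cannot show that the samples were unpaired. With the numbers as a replicate block 770 genes passed (713 of the 851), 1 member lower and 1 member higher.

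Depth limits the 5 members under 100 counts in total, whose log2 fold changes had standard errors of 0.54 to 1.22. Sex and genotype are partly confounded, since no Tlx3cko library carried Xist. Counts of bulk ganglia carry no cell identity.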
